A study of Bos taurus with 6 samples.

Results

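The genes described here are the machinery of autophagy, vacuolar sorting and the lysosome in bovine blastocysts produced in vitro. They were chosen by name: every gene of the deposited table whose symbol starts with ATG and a digit, GABARAP, MAP1LC3, WIPI, VPS and a digit, ATP6V, ATP6AP or LAMP and a digit, together with SQSTM1 and the cathepsins, whose symbols are CTS and 1 letter. The rule took 88 of the 9537 genes and used no measured value. RNA sequencing compared embryos with low cryosurvival and embryos with high cryosurvival (3 libraries each), where cryosurvival is survival of vitrification, a very fast cooling that turns the fluid to glass. All embryos were bovine blastocysts grown in SOFaaci medium, and no other treatment, strain or age is given in the labels. The titles carry the codes NV for each low and V for each high library, which the labels do not explain, so what else the codes may mark cannot be told apart from cryosurvival. The sources used here do not say whether the embryos sequenced had themselves been vitrified. No label states that replicate libraries are separate cultures, so the p-values measure only the spread between these libraries, which may be technical.

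Autophagy encloses cytoplasm in a double membrane, the autophagosome, which then fuses with the lysosome. The ULK1 complex and a class III phosphatidylinositol kinase start the membrane, ATG9A and ATG2 proteins supply its lipids, and the ATG12 and ATG8 conjugation systems attach LC3 and GABARAP proteins to it. The vacuolar ATPase (V-ATPase) pumps protons into endosomes and lysosomes: its V1 sector burns ATP in the cytosol and its V0 sector carries protons through the membrane. VPS proteins sort membrane proteins between Golgi, endosomes and lysosomes, and cathepsins are the proteases that work at the low pH inside. In the mouse, embryos without ATG5 from egg and sperm fail before implantation, and the trophectoderm, the outer epithelium of the blastocyst, takes up material by endocytosis into such compartments.

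The libraries held 14651477 to 19467022 reads in the table. Values are CPM, reads divided by a scaled library size, and differences are low minus high in mean log2(CPM + 1), which understates the change of genes at low CPM. Limma's test was fitted on all genes, with Benjamini-Hochberg adjustment over all 9537. In 79 of the 88 members every library had at least 100 reads, and the fewest reads were 6, for MAP1LC3C. Low cryosurvival library 2 stood apart from the others: its median correlation with the other libraries over all genes was 0.965, against 0.982 to 0.989 for the rest. Differences that change sign or move by over 1.5 times without it are therefore given both ways. The labelled tissue was checked on marker genes: 9 of 12 trophectoderm, 7 of 8 inner cell mass and 8 of 10 hypoblast markers were measured. Summed trophectoderm markers were at 32343 to 35791 CPM in high and 27668 to 37837 CPM in low libraries. Inner cell mass markers summed to 1061 to 1185 CPM in high and 1003 to 1290 CPM in low. Hypoblast markers summed to 2221 to 2897 CPM in high and 1500 to 3001 CPM in low, a wider range in low. The 6 measured of 12 cumulus and granulosa markers summed to 421 to 548 CPM in high and 396 to 542 CPM in low. These were CYP11A1, CYP19A1, FSHR, HSD3B1, INHBA and STAR, while HAS2, PTX3, TNFAIP6, INHA, AMH and FOXL2 were not measured. Of 4 sperm and immune cell markers only CD68 was measured, at 7.14, 4.81 and 6.96 CPM in low and 10.8, 9.07 and 11.1 CPM in high libraries 1, 2 and 3. CD68 marks macrophages and is itself a lysosomal membrane protein; all its low libraries lay below the high ones (log2 difference -0.64, limma adjusted p = 0.229). The part of such cells in the results below was not tested.

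One proton pump gene stood out among the 88. ATP6V1B1, the B1 isoform of the ATP-binding V1 subunit B that is known from acid-secreting epithelia, was at 52.5, 55.0 and 50.9 CPM in low cryosurvival libraries 1, 2 and 3 and 96.2, 89.3 and 109.7 CPM in high cryosurvival libraries 1, 2 and 3. All 3 low libraries lay below all 3 high libraries, and the high mean of 98.4 ± 10.3 CPM was 1.86 times the low mean of 52.8 ± 2.04 CPM (SD, n = 3 each). This gap was larger than the spread between the libraries of either group. In the authors' deposited table the log2 fold of ATP6V1B1, low over high, was -0.90 with an adjusted p of 0.002, and it was the only member called there. Over all genes, the authors' deposited table called 0.283% lower and 0.912% higher in low. In limma's test ATP6V1B1 had a log2 difference of -0.88 (SE 0.13, 95% interval -1.18 to -0.58), and its adjusted p of 0.125 missed 0.05. Limma on voom weights from the recovered reads gave an adjusted p of 0.0984, also short of 0.05. With low cryosurvival library 2 left out, the difference was -0.91 and passed (limma adjusted p = 0.0152). That fit called 8.15% of all genes higher and 5.48% lower in low. With any other library left out instead, ATP6V1B1 did not pass (limma adjusted p from 0.293 to 0.597). In these bulk samples fewer cells that express a gene and less RNA per cell cannot be told apart.

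As a set the members were close to the whole table. Limma called 0 of the 88 at an adjusted p of 0.05, as it did for 0% of all genes, and voom likewise called 0 (0% of all genes). At an unadjusted p below 0.05, limma had 1 member higher in low, ATG13 (6.27% of all genes), and 3 lower in low, ATP6V1B1, VPS33B and ATG16L1 (5.70% of all genes). The median difference of the members was 0.03, with 50 higher and 38 lower in low, against 0.00023 over all genes, with 4772 higher and 4765 lower. In 65 of the 88 the difference was smaller than 0.25 in either direction. The 3 low libraries lay wholly above the 3 high ones in 9 members (10.4% of all genes) and wholly below in 7 (10.6% of all genes), so both shares, 10.2% and 7.95%, were close to or under those of the whole table. Without low cryosurvival library 2, limma called 5 members higher (8.15% of all genes) and 2 lower (5.48% of all genes). Groups were then separate in 24 members upward (27.6% of all genes) and 21 downward (27.5% of all genes), with 1 library fewer to overlap. The 5 called higher were ATG13, ATG16L2, ATP6V0A1, VPS53 and VPS54, and the 2 called lower were ATP6V1B1 and VPS33B.

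**Figure D1:**
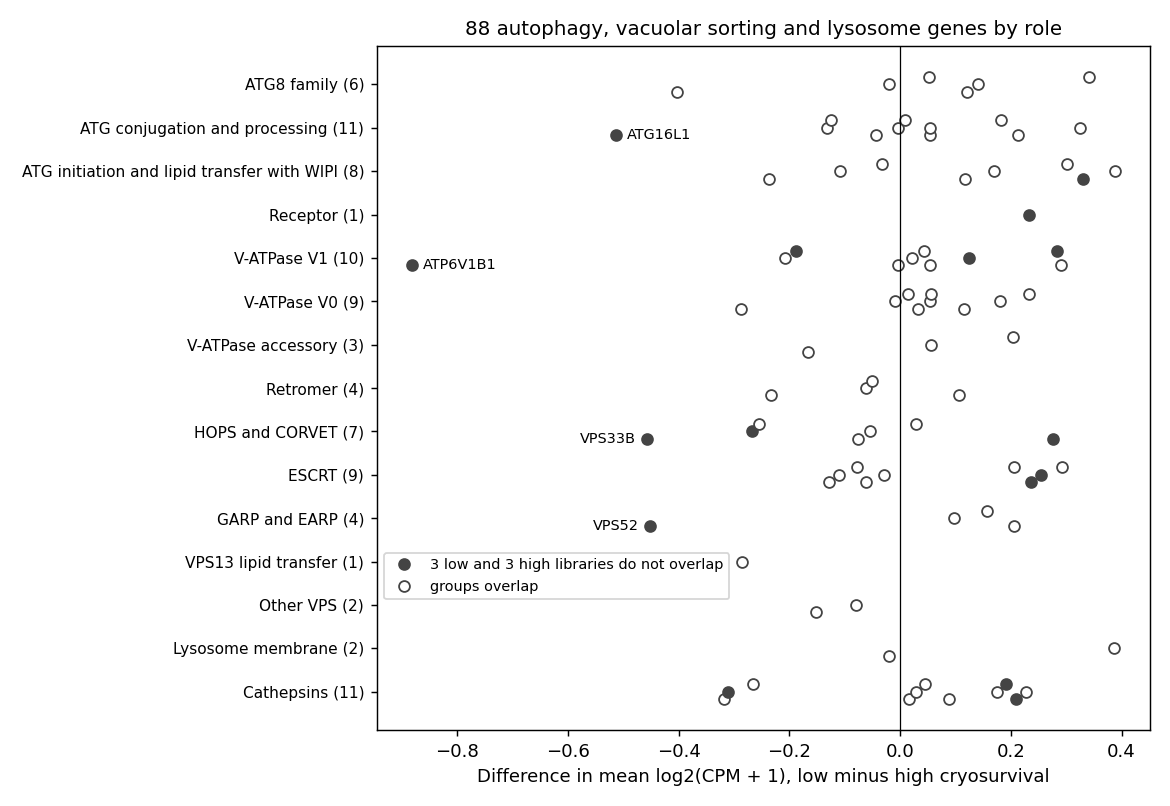
Each point is 1 of the 88 genes, placed by its difference in mean log2(CPM + 1) between low and high cryosurvival (x axis) in the row of its role, with the number of genes in brackets. Filled points are the 16 genes whose 3 low and 3 high libraries do not overlap; ATP6V1B1 lies farthest from 0, at -0.88.

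**Figure D2:**
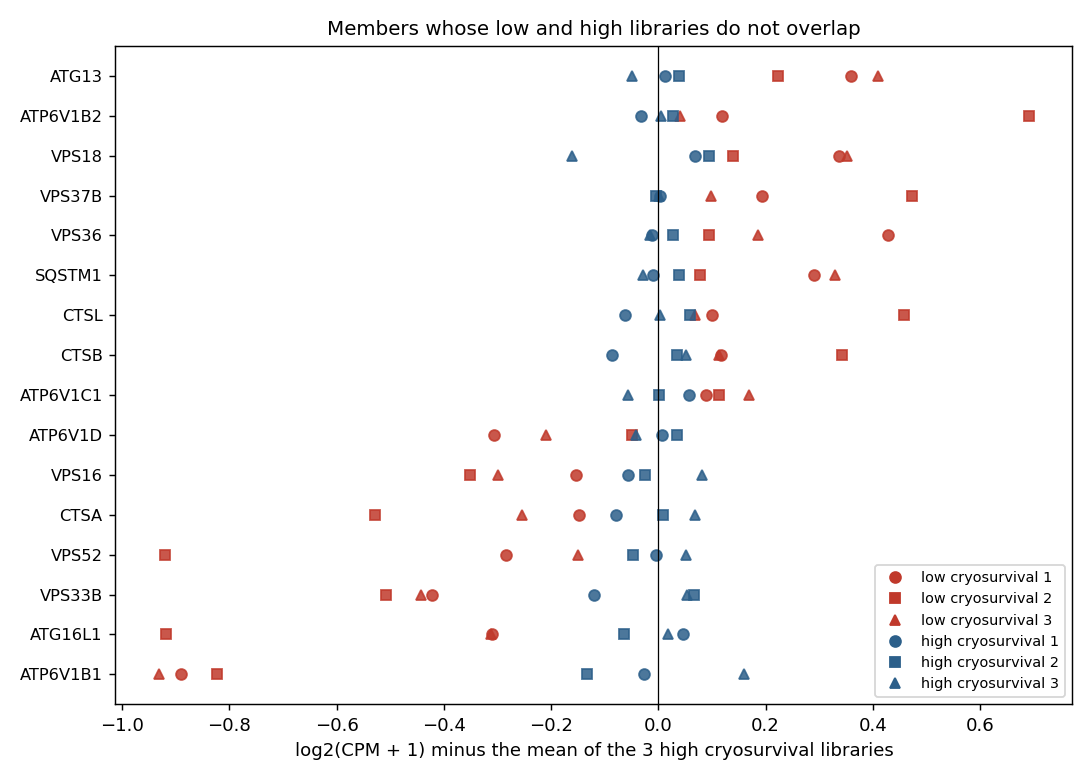
Values of the 16 genes without overlap in each library, as log2(CPM + 1) minus the mean of the 3 high libraries (x axis); colour gives the group and shape the library number. In ATP6V1B1 the 3 low libraries sit close together far from the high ones, while in ATP6V1B2, VPS52 and ATG16L1 low library 2 lies far from low libraries 1 and 3.

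Among the V1 genes of the V-ATPase, the isoforms of subunit B lay on opposite sides. ATP6V1B2, the B2 isoform present in most cells, was at 253, 377 and 240.2 CPM in low and 228, 238 and 234 CPM in high libraries 1, 2 and 3. Its 3 low libraries lay above the high ones, but low library 3 did so by only a few CPM and low library 2 was far above. The difference of ATP6V1B2 was 0.28 (SE 0.19, limma adjusted p = 0.664), and 0.08 without low library 2 (adjusted p = 0.536). The 10 measured V1 genes had a median of 0.03, with 6 higher and 4 lower in low, and -0.08 without low library 2. ATP6V1D, a subunit of the central rotor, was at 118, 141 and 126 CPM in low and 147, 149.7 and 142 CPM in high, with all low libraries below the high ones by a difference of -0.19 (SE 0.12, limma adjusted p = 0.65). ATP6V1C1, a subunit that links V1 to V0, was at 49.4, 50.2 and 52.3 CPM in low and 48.3, 46.4 and 44.5 CPM in high, and its low libraries lay narrowly above the high ones (log2 difference 0.12, SE 0.11, limma adjusted p = 0.777). ATP6V1C2, its epithelial isoform, was at 28.2, 36.1 and 31.4 CPM in low and 32.9, 37.1 and 40.9 CPM in high, and there the groups overlapped. The catalytic subunit ATP6V1A was at 171 ± 27.8 CPM (low) and 170.2 ± 10.8 CPM (high) (SD, n = 3 each), a difference of -0.003 with a 95% interval of -0.38 to 0.37, and 0.14 without low library 2. ATP6V1E1, of the peripheral stalk, was at 413, 687 and 415 CPM in low and 386, 413 and 403 CPM in high. Only low library 2 set ATP6V1E1 apart, as its difference of 0.29 became 0.05 without that library. The rotor gene ATP6V1F, the stalk gene ATP6V1G1 and the regulatory ATP6V1H differed by 0.02, 0.04 and 0.05, with limma adjusted p values from 0.933 to 0.989. They differed by -0.33, -0.14 and -0.01 without low library 2, with the low libraries of ATP6V1F and ATP6V1G1 then wholly below the high ones.

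The V0 genes held no member whose groups were separate, and in all 9 of them low library 2 was either the highest (5) or the lowest (4) of the 6 libraries. Over all genes low library 2 was the highest or the lowest in 69.9%. ATP6V0C, which encodes the proton-carrying ring subunit, was at 887, 1168 and 857 CPM in low and 959, 1019.8 and 924 CPM in high. Its groups overlapped, with a difference of -0.01 (95% interval -0.38 to 0.36) that was -0.15 without low library 2. The a subunits form the path for protons and send the pump to its membrane. ATP6V0A4, the a4 isoform known as a partner of B1 in acid-secreting cells, was at 484, 367 and 451 CPM in low and 414, 421 and 411 CPM in high, a difference of 0.05 (SE 0.14, limma adjusted p = 0.947) that was 0.17 without low library 2. Unlike ATP6V1B1, it overlapped between the groups, with low library 2 the lowest and low library 1 the highest. ATP6V0A1 was at 19.1, 5.41 and 19.2 CPM in low and 10.5, 12.95 and 11.7 CPM in high, so low libraries 1 and 3 were above every high library while low library 2 was below every one. The difference of ATP6V0A1 was 0.12 (limma adjusted p = 0.964) and 0.67 without low library 2 (0.0206). ATP6V0A2 had the same layout at lower contrast, at 58.3, 29.4 and 52.4 CPM in low and 48.1, 45.2 and 38.7 CPM in high, and its difference went from 0.03 to 0.33 without low library 2. ATP6V0D2, a d subunit isoform of osteoclasts and some epithelia, was at 229, 191 and 252 CPM in low and 259.5, 241 and 321 CPM in high, and the groups overlapped through high library 2 (log2 difference -0.29, SE 0.17, limma adjusted p = 0.603; -0.18 without low library 2). ATP6V0B, another ring subunit, was at 289, 563 and 303 CPM in low and 306, 331 and 300.5 CPM in high. Here low library 2 was far above the other 5 libraries, and the difference of ATP6V0B went from 0.23 to -0.08 without it. The d1, e1 and e2 subunit genes ATP6V0D1, ATP6V0E1 and ATP6V0E2 differed by 0.18, 0.01 and 0.05, each with low library 2 as the highest. Leaving it out, these were 0.02, -0.27 and -0.15, and the low libraries of ATP6V0E1 were then wholly below the high ones.

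The accessory genes ATP6AP1 and ATP6AP2, which help to assemble the pump, were at 681 ± 68.7 CPM (low) and 591 ± 62.7 CPM (high) and at 149 ± 15.3 CPM (low) and 144 ± 23.4 CPM (high) (SD, n = 3 each). Their differences were 0.20 (SE 0.14, limma adjusted p = 0.679) and 0.06 (SE 0.16, limma adjusted p = 0.952), or 0.13 and -0.03 without low library 2, and both groups of libraries overlapped. ATP6AP1L, at 2.70 ± 1.51 and 2.98 ± 0.646 CPM, rested on 31 to 63 reads per library and differed by -0.17, or -0.48 without low library 2.

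**Figure D3:**
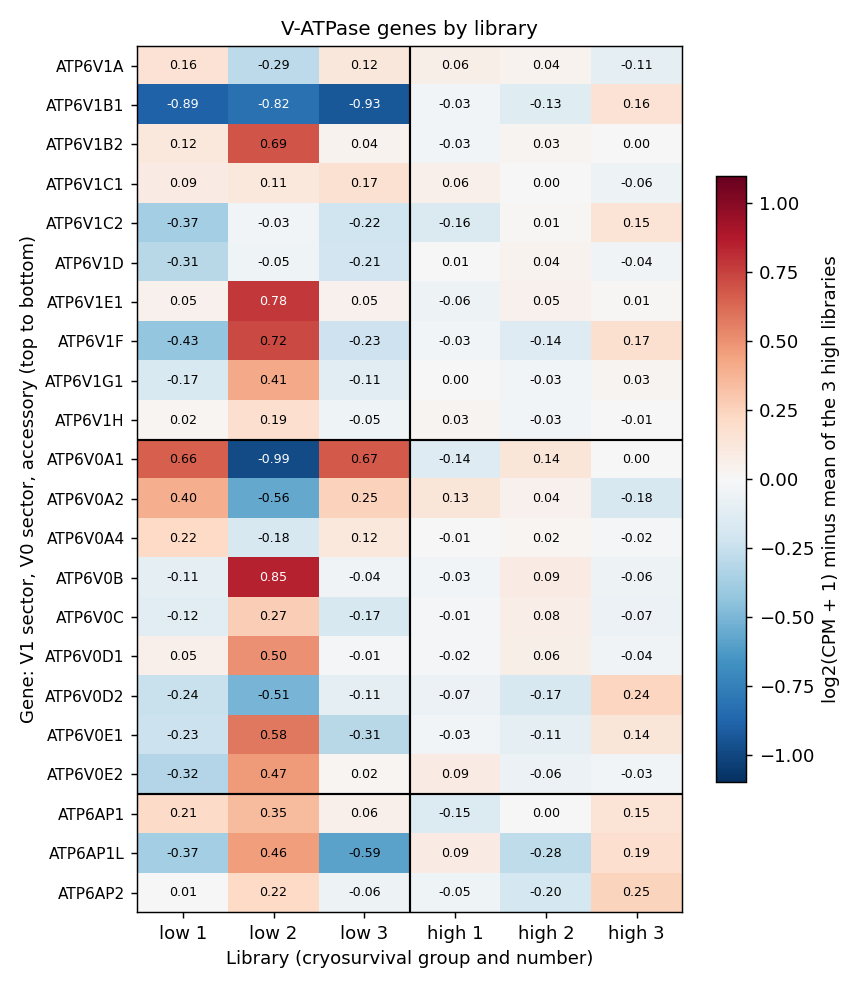
Each cell gives log2(CPM + 1) of a V-ATPase gene (rows) in a library (columns) minus the mean of the 3 high libraries; red is above and blue below that mean. ATP6V1B1 is blue in all 3 low libraries (-0.89, -0.82 and -0.93), whereas ATP6V0A1, ATP6V0B and ATP6V1F change colour between low library 2 and low libraries 1 and 3.

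Several members are pairs of paralogs, of which only some fill the same place in a complex. The ratio within a pair, here a difference of log2(CPM + 1), shows whether their balance differed, with the scaling of a library nearly cancelled. The 11 pairs were chosen after the values were seen, so they get no test, and an exact permutation test of 3 against 3 could not go below 0.1. In 3 of the 11 the low and high ratios did not overlap, and in 8 they did. Single genes were separate in 10.4% of all genes upward and 10.6% downward, and no such share was computed for pairs. Each of the 3 pairs holds a gene already separate by itself (ATP6V1B1, ATG16L1 or VPS33B), so their ratios are not separate results. The log2 ratio of ATP6V1B1 to ATP6V1B2 was -2.25, -2.76 and -2.22 in low and -1.24, -1.403 and -1.09 in high libraries 1, 2 and 3, a shift of -1.17, or -0.99 without low library 2. Each low library thus had less B1 relative to B2 than any high library. The ratio of ATG16L1 to ATG16L2, scaffolds of the enzyme that attaches LC3 to membranes, was 2.77, 2.65 and 2.83 in low and 3.76, 3.51 and 3.50 in high, a shift of -0.84 that was -0.79 without low library 2. In this pair the SD between libraries was 0.0906 in low and 0.144 in high, so the low libraries agreed on the ratio even though low library 2 had the lowest value of each gene among the low libraries. The ratio of VPS33A to VPS33B, SNARE-binding subunits of separate tethering complexes, was 0.16, 0.23 and 0.28 in low and -0.09, -0.31 and -0.13 in high, a shift of 0.40. By themselves VPS33A differed by -0.05 and VPS33B by -0.46. The other 8 pairs shifted by -0.13 (ATG2A to ATG2B) to 0.47 (ATP6V0D1 to ATP6V0D2), and without low library 2 these pairs at the ends of the range shifted by -0.46 and 0.20. LAMP1 to LAMP2 shifted by 0.40 and ATP6V1C1 to ATP6V1C2 by 0.33, each with overlap.

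**Figure D4:**
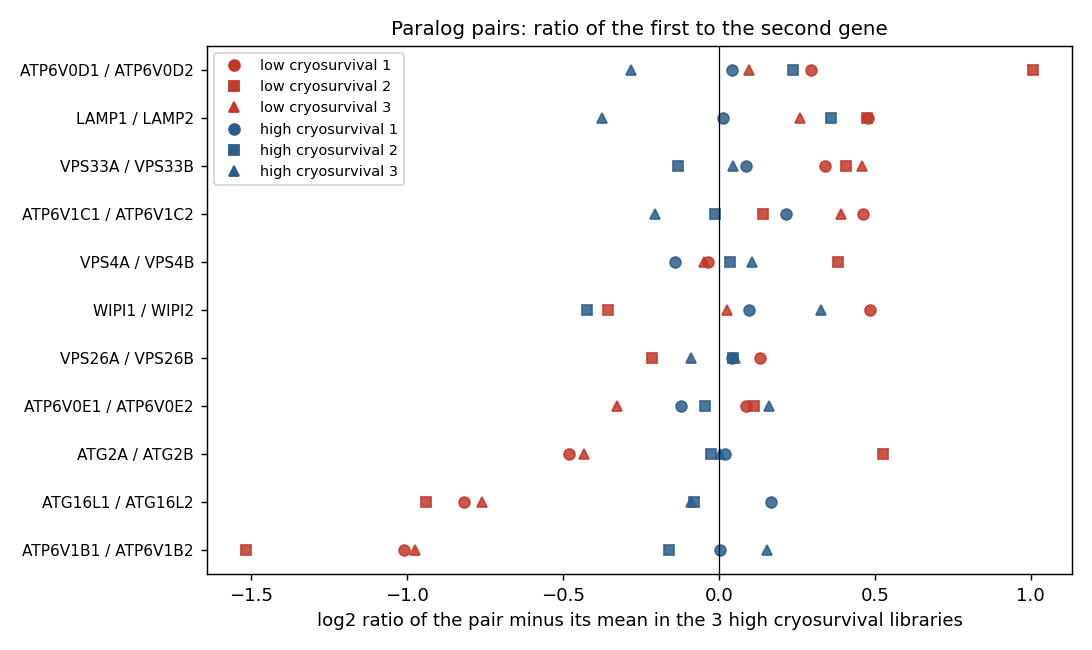
Log2 ratio of the first to the second gene of 11 paralog pairs in each library, with the mean of the 3 high libraries set to 0 (x axis); colour gives the group and shape the library number. The low and high libraries are apart in ATP6V1B1 to ATP6V1B2, ATG16L1 to ATG16L2 and VPS33A to VPS33B and mix in the other 8 pairs.

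In the steps that start an autophagosome, ATG13 alone of 8 members had separate groups. That is 12.5% upward, near the 10.4% of all genes. ATG13, the adaptor that holds the ULK1 kinase complex together, was at 67.1, 61.0 and 69.6 CPM in low and 52.6, 53.5 and 50.3 CPM in high libraries 1, 2 and 3. All low libraries were above all high ones, and the difference was 0.33 (SE 0.12, limma adjusted p = 0.336), or 0.38 with a limma adjusted p of 0.0365 without low library 2. ATG101, which binds ATG13 in the same complex, was at 80.0, 133 and 89.7 CPM in low and 82.1, 80.0 and 64.1 CPM in high. Its groups overlapped through low library 1 and high library 1, and most of its difference of 0.39 came with low library 2, as it was 0.17 without it. ATG9A, the scramblase of the vesicles that seed the membrane, was at 69.1, 51.1 and 61.0 CPM in low and 47.8, 54.6 and 43.7 CPM in high (log2 difference 0.30, SE 0.16, limma adjusted p = 0.552). The lipid transfer proteins ATG2A and ATG2B differed by -0.24 and -0.11, and ATG14, which directs the lipid kinase to autophagy, by -0.03. Without low library 2, their differences were -0.20, 0.26 and 0.14, and ATG2B and ATG14 were then higher in both low libraries than in any high one. WIPI2, which reads the kinase's lipid product, was at 174 ± 21.6 CPM (low) and 159 ± 8.10 CPM (high) (SD, n = 3 each), with overlap (log2 difference 0.12, SE 0.14, limma adjusted p = 0.846; 0.02 without low library 2). WIPI1, on 14 to 40 reads per library, differed by 0.17, or 0.28 without low library 2.

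Of the 11 conjugation and processing genes, ATG16L1 alone had separate groups. That is 9.09% downward, near the 10.6% of all genes. ATG16L1 was at 159.9, 105 and 159.6 CPM in low and 205, 189.9 and 201 CPM in high, and the low libraries were all below the high ones, low library 2 by the most. Its difference was -0.51 (SE 0.19, limma adjusted p = 0.352), and -0.31 without low library 2 (0.0572). ATG16L2 lay on the other side, at 22.5, 15.8 and 21.6 CPM in low and 14.2, 15.7 and 16.8 CPM in high. Low libraries 1 and 3 of ATG16L2 were above all high ones and low library 2 was among them, so its difference of 0.32 (SE 0.17, limma adjusted p = 0.535) became 0.48 without low library 2 and then passed (0.034). The partners of ATG16L1 in the enzyme, ATG5 and ATG12, were at 58.9 ± 3.84 CPM (low) and 58.5 ± 2.19 CPM (high) and at 52.5 ± 3.35 CPM (low) and 52.7 ± 4.71 CPM (high) (SD, n = 3 each). Neither showed a difference beyond its spread, with 95% intervals of -0.27 to 0.28 and -0.31 to 0.30, or differences of -0.03 and 0.05 without low library 2. The activating enzyme ATG7 and the carrier enzymes ATG3 and ATG10 differed by -0.04, -0.13 and 0.05, or by -0.08, -0.21 and -0.13 without low library 2; ATG10 rested on 71 to 99 reads per library. Among the proteases that trim and recycle ATG8 proteins, ATG4B was at 79.1, 85.6 and 90.5 CPM in low and 97.1, 94.3 and 86.9 CPM in high (log2 difference -0.12, SE 0.12, limma adjusted p = 0.802) and ATG4D differed by 0.21. ATG4A, at 4.39 ± 2.32 and 3.55 ± 0.941 CPM, and ATG4C differed by 0.18 and 0.05, or 0.44 and 0.05 without low library 2, with overlap in both.

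No ATG8 gene had separate groups, and 4 of the 6 peaked in low library 2 (34.4% of all genes). GABARAPL2 was at 84.8, 146 and 84.3 CPM in low and 99.3, 97.1 and 113 CPM in high, so low libraries 1 and 3 were below the high ones and low library 2 above them. Its difference was -0.02 with low library 2 and -0.28 without it (limma adjusted p = 0.988 and 0.101). GABARAP, MAP1LC3A and MAP1LC3B followed this layout in their high value in low library 2: MAP1LC3A was at 23.9, 58.4 and 26.7 CPM in low and 25.995, 23.2 and 29.9 CPM in high. Their differences of 0.12, 0.34 and 0.05 became -0.17, -0.05 and -0.20 without low library 2. GABARAPL1 was at 96.3, 81.7 and 99.9 CPM in low and 79.9, 83.7 and 87.4 CPM in high and did not follow it, as low library 2 was the second lowest of the 6 (log2 difference 0.14, SE 0.13, limma adjusted p = 0.783; 0.23 without low library 2). MAP1LC3C, on 6 to 58 reads per library, was at 0.3, 1.202 and 1.05 CPM in low and 3.25, 0.367 and 1.33 CPM in high, with high library 1 above the rest and a difference of -0.40. SQSTM1, the p62 receptor that carries ubiquitin-tagged cargo into autophagosomes, was at 474, 409 and 486 CPM in low and 384, 398 and 379.7 CPM in high libraries 1, 2 and 3. All low libraries of SQSTM1 lay above the high ones, low library 2 by the least, and the difference was 0.23 (SE 0.12, limma adjusted p = 0.552), or 0.31 without low library 2 (0.055).

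Among the 27 VPS genes, 10 were higher and 17 lower in low, with a median of -0.06. Without low library 2 the counts were 14 and 13 and the median 0.01, so the larger number on the lower side rested on that library. The groups were separate in 3 VPS genes upward and 3 downward, 11.1% each, near the 10.4% and 10.6% of all genes. VPS33B, which with VIPAS39 forms a tether for recycling and storage vesicles, was at 39.04, 36.7 and 38.5 CPM in low and 48.3, 55.2 and 54.7 CPM in high. The low libraries were tightly grouped below every high library, and the difference was -0.46 (SE 0.12, limma adjusted p = 0.214), with -0.43 and a limma adjusted p of 0.0374 without low library 2. VPS16, a core subunit of the HOPS and CORVET tethers that dock endosomes and lysosomes, was at 74.2, 64.6 and 67.0 CPM in low and 79.4, 81.2 and 87.5 CPM in high. It too was lower in every low library (log2 difference -0.27, SE 0.12, limma adjusted p = 0.452). Another core subunit of these tethers, VPS18, was at 72.5, 63.1 and 73.3 CPM in low and 60.0, 61.1 and 51.03 CPM in high and lay higher in every low library (log2 difference 0.28, SE 0.13, limma adjusted p = 0.501). The core subunits VPS11 and VPS33A were at 55.9 ± 7.40 CPM (low) and 58.6 ± 0.905 CPM (high) and at 44.7 ± 2.02 CPM (low) and 46.5 ± 2.91 CPM (high) (SD, n = 3 each), with overlap. Within the core, VPS16 and VPS18 thus lay on opposite sides, and VPS11 and VPS33A differed by -0.08 and -0.05, or 0.04 and -0.03 without low library 2. The HOPS subunits VPS39 and VPS41 differed by -0.25 and 0.03, or 0.02 and 0.17 without low library 2, and VPS39 was at 21.9 CPM in low library 2 against 37.4 to 41.8 CPM in the other 5 libraries.

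The GARP complex tethers vesicles that return from endosomes to the Golgi, and its measured subunits also lay on both sides of 0. VPS52 was at 79.4, 50.8 and 87.3 CPM in low and 96.6, 93.8 and 101 CPM in high, lower in every low library and by far the lowest in low library 2. Its difference of -0.45 (SE 0.21, limma adjusted p = 0.48) became -0.22 without low library 2 (0.143). VPS53 was at 31.9, 17.3 and 34.2 CPM in low and 25.8, 25.6 and 23.2 CPM in high and VPS54 at 33.1, 24.3 and 34.8 CPM in low and 26.4, 27.3 and 25.1 CPM in high. In both, low libraries 1 and 3 were above every high library and low library 2 was the lowest of the 6. Their differences of 0.10 and 0.20 (limma adjusted p = 0.948 and 0.736) became 0.40 and 0.36 without low library 2, and then passed (0.0424 and 0.0444). VPS51 was at 93.8 ± 10.8 CPM (low) and 84.0 ± 9.79 CPM (high) (SD, n = 3 each), with overlap (log2 difference 0.16, SE 0.15, limma adjusted p = 0.793; 0.07 without low library 2).

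ESCRT proteins bud vesicles into endosomes and close membranes. VPS36, of ESCRT-II, was at 68.3, 54.001 and 57.6 CPM in low and 50.1, 51.5 and 49.97 CPM in high, and VPS37B, of ESCRT-I, at 65.2, 79.3 and 60.9 CPM in low and 57.0, 56.7 and 56.9 CPM in high. The low libraries of both lay above the high ones, and the 3 high libraries of VPS37B were nearly equal (SD 0.1496 CPM). Their differences were 0.24 (SE 0.13, limma adjusted p = 0.577) and 0.25 (SE 0.14, limma adjusted p = 0.562), and low library 2 was the highest in VPS37B but the lowest of the low group in VPS36. Without it they differed by 0.31 and 0.15. VPS25, the partner of VPS36 in ESCRT-II, was at 143, 216 and 154 CPM in low and 177, 182 and 185 CPM in high, with low libraries 1 and 3 below every high library and low library 2 above (log2 difference -0.11, SE 0.18, limma adjusted p = 0.899; -0.29 without low library 2). VPS28, of ESCRT-I, had the same layout at 133, 187 and 149 CPM in low and 166, 167 and 159 CPM in high (log2 difference -0.08, SE 0.15, limma adjusted p = 0.925; -0.21 without low library 2). The ATPases VPS4A and VPS4B, which take ESCRT filaments apart, were at 95.2 ± 4.08 CPM (low) and 97.3 ± 6.96 CPM (high) and at 63.7 ± 12.8 CPM (low) and 68.7 ± 2.19 CPM (high) (SD, n = 3 each). Both pairs of groups overlapped, with differences of -0.03 and -0.13, or 0.01 and 0.05 without low library 2. VPS37A, VPS37C and VPS37D differed by -0.06, 0.21 and 0.29, the last on 23 to 38 reads per library. These were -0.06, 0.59 and 0.18 without low library 2, with the low libraries of VPS37C then wholly above the high ones.

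Retromer, which retrieves receptors from endosomes, showed no separate member. VPS35, its scaffold, was at 221, 178 and 222 CPM in low and 201, 192 and 181 CPM in high, and VPS26A at 156, 145 and 144 CPM in low and 157, 157 and 149 CPM in high. Both overlapped, with differences of 0.11 (SE 0.14, limma adjusted p = 0.864) and -0.06 (SE 0.11, limma adjusted p = 0.917), and VPS35 was at 0.21 without low library 2. VPS29 and VPS26B differed by -0.23 and -0.05, or -0.38 and -0.14 without low library 2. VPS29 was at 88.6, 128 and 97.8 CPM in low and 118, 116 and 132 CPM in high, so low libraries 1 and 3 were below the high ones and low library 2 among them. VPS13D, a bridge that moves lipids between membranes, was at 72.1 ± 22.3 CPM (low) and 85.003 ± 1.54 CPM (high), and its difference of -0.28 was -0.01 without low library 2. VPS45, a partner of endosomal SNAREs, differed by -0.08, or -0.02 without low library 2. VPS72, which carries the VPS name but is a subunit of chromatin remodelling complexes, differed by -0.15, or -0.28 without it.

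At the lysosome itself, LAMP1 and LAMP2, the main membrane glycoproteins, had overlapping groups. LAMP1 was at 473, 558 and 391 CPM in low and 356, 436 and 299 CPM in high, with low libraries 1 and 2 above every high library and low library 3 among them (log2 difference 0.39, SE 0.20, limma adjusted p = 0.528). LAMP2 was at 486, 573 and 467 CPM in low and 504, 485 and 554 CPM in high, a difference of -0.02 with a 95% interval of -0.34 to 0.30, and -0.11 without low library 2.

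The 11 cathepsins had a median difference of 0.05, with 8 higher and 3 lower in low, and -0.02 without low library 2, when 5 were higher and 6 lower. CTSA, a serine carboxypeptidase that also protects other lysosomal enzymes, was at 459, 352 and 426 CPM in low and 482, 512 and 533 CPM in high libraries 1, 2 and 3. All low libraries were below the high ones, low library 2 the most, and the difference was -0.31 (SE 0.14, limma adjusted p = 0.461), or -0.20 without low library 2. CTSB and CTSL, endopeptidases of the papain family, were at 424, 497 and 424 CPM in low and 369, 401 and 406 CPM in high and at 383, 491 and 374 CPM in low and 342, 372 and 358 CPM in high. Their low libraries lay above the high ones, but in CTSL low library 3 exceeded high library 2 by only a few CPM. The differences of 0.19 (SE 0.13, limma adjusted p = 0.655) and 0.21 (SE 0.15, limma adjusted p = 0.681) became 0.11 and 0.08 without low library 2. CTSD, the main aspartic protease of lysosomes, was at 2034, 2707 and 1895 CPM in low and 1887, 2090.2 and 1648 CPM in high, with low libraries 1 and 3 below high library 2 (log2 difference 0.23, SE 0.18, limma adjusted p = 0.732; 0.07 without low library 2). CTSV, a close relative of CTSL whose reads may be shared with it, was at 1339, 1664 and 1506 CPM in low and 1348, 1389 and 1244 CPM in high. It also overlapped between the groups (log2 difference 0.18, SE 0.13, limma adjusted p = 0.713; 0.10 without low library 2). CTSH, an aminopeptidase, was at 345, 434 and 282 CPM in low and 369, 449 and 443 CPM in high, with low libraries 1 and 3 below the high ones and low library 2 among them (log2 difference -0.27, SE 0.19, limma adjusted p = 0.685; -0.42 without low library 2). CTSK differed by -0.32, and CTSC, CTSF, CTSS and CTSZ by 0.09, 0.03, 0.05 and 0.02, all with overlap. Without low library 2 CTSK differed by -0.13 and the other 4 by 0.06, -0.07, -0.02 and -0.10; CTSS rested on 35 to 47 reads per library.

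Of 123 other genes of these pathways (companion genes), written from general knowledge and with earlier results of these data known, 107 were measured. Neither limma nor the authors' deposited table called any of them (0 each), and their median difference was 0.05, with 64 higher and 43 lower. Their low libraries lay wholly above the high ones in 14 and wholly below in 8, which is 13.1% and 7.48% of the 107, beside 10.4% and 10.6% of all genes. Without low library 2, limma called 9 of the 107 higher (8.15% of all genes) and 6 lower (5.48% of all genes). RRAGC and TMEM41B had large separate differences upward. RRAGC, a GTPase that brings the growth kinase mTORC1 to lysosomes, was at 50.1, 42.2 and 45.6 CPM in low and 32.9, 34.0 and 29.01 CPM in high (log2 difference 0.51, SE 0.13, limma adjusted p = 0.213). TMEM41B, a lipid scramblase needed for autophagosome growth, was at 90.6, 87.2 and 86.9 CPM in low and 66.6, 66.3 and 59.8 CPM in high (log2 difference 0.45, SE 0.11, limma adjusted p = 0.207). In both genes every low library was above every high one. The largest separate differences downward were in BECN1, ROGDI and BNIP3. ROGDI, a subunit of the factor that joins V1 to V0, was at 145, 146 and 166 CPM in low and 210.2, 204 and 211 CPM in high (log2 difference -0.45, SE 0.12, limma adjusted p = 0.215), lower in every low library. The other measured companion genes of the V-ATPase, TCIRG1, TM9SF1 and OXR1, differed by 0.04, 0.12 and -0.22, all with overlap. Without low library 2 these were -0.12, 0.05 and 0.05. BNIP3, a mitophagy receptor, was at 49.3, 53.7 and 55.5 CPM in low and 67.7, 70.7 and 69.6 CPM in high (log2 difference -0.39, SE 0.11, limma adjusted p = 0.258), and its low libraries agreed closely. BECN1, of the class III lipid kinase complex, was at 50.2, 26.3 and 51.7 CPM in low and 56.9, 60.6 and 54.7 CPM in high (log2 difference -0.48, SE 0.26, limma adjusted p = 0.573). Low library 2 was by far the lowest in BECN1, and the difference was -0.17 without it (0.23). Without low library 2, RRAGC, TMEM41B, ROGDI and BNIP3 passed, with limma adjusted p values of 0.0266, 0.0322, 0.0374 and 0.0404.

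By role, the companion genes differed in how far their values rested on low library 2. Of 11 measured genes for initiation and the class III lipid kinase, low library 2 was the lowest of the 6 libraries in 10 (35.5% of all genes). Their median difference was -0.08 with it and 0.13 without it, when 10 of the 11 were higher in low (4672 of all 9537 genes). The 3 cystatins, inhibitors of cysteine cathepsins, had their highest value in low library 2 (34.4% of all genes). The median of the cystatins went from 0.16 to -0.16 without it. The 17 ESCRT genes outside the VPS names had a median of 0.02, 12 of them higher in low, and -0.02 without low library 2. The 14 genes of TFEB and mTORC1 signalling had a median of -0.06, with 7 higher and 7 lower, and -0.03 without low library 2. The cargo receptors, fusion genes, sorting nexins and V-ATPase companion genes had medians of 0.02, 0.06, -0.10 and -0.09. Without low library 2 these medians were -0.04, 0.13, -0.01 and -0.04. The 36 lysosomal enzymes, membrane proteins and sorting receptors, the largest role, had a median of 0.13, with 26 higher and 10 lower. Over all genes 4772 were higher and 4765 lower. With low library 2 left out, 27 of the 36 were higher (4672 of all 9537 genes) and the median was 0.19. Limma then called 5 of the 36 higher (8.15% of all genes) and 0 lower (5.48%). That fit reuses the remaining libraries, so it is not a separate result. In the same fit the cathepsins, which are not in this list, had 5 higher and 6 lower. Whether this role differs from all genes was not tested. The transcription factors TFEB and TFE3, which drive lysosomal genes, were at 91.9 ± 23.3 CPM (low) and 101 ± 9.85 CPM (high) and at 145 ± 17.1 CPM (low) and 138 ± 18.9 CPM (high) (SD, n = 3 each), and both overlapped between the groups. TFEB overlapped through low library 2: without it the difference was -0.36 (limma adjusted p = 0.0659), with low libraries 1 and 3 below every high library. TFE3 differed by 0.07, or 0.17 without low library 2.

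Low cryosurvival library 2 was the highest of the 6 libraries in 34 members and the lowest in 25, together 67.0%, close to the 69.9% of all genes. Measured from the high mean, low library 2 lay on the other side from the mean of low libraries 1 and 3 in 46 of the 88 members (52.3%) and in 53.8% of all genes. The median distance from the high mean in the members was 0.31 for low library 2 and 0.17 for the mean of low libraries 1 and 3. Over all genes these distances were 0.36 and 0.20. Averaging low libraries 1 and 3 shortens such a distance by itself, so the 2 values of each kind are not alike. ATP6V1B1, at -0.82 in low library 2 and -0.91 in the mean of the other low libraries, had all 3 low libraries alike and far from the high mean. What sets low library 2 apart was not tested.

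**Figure D5:**
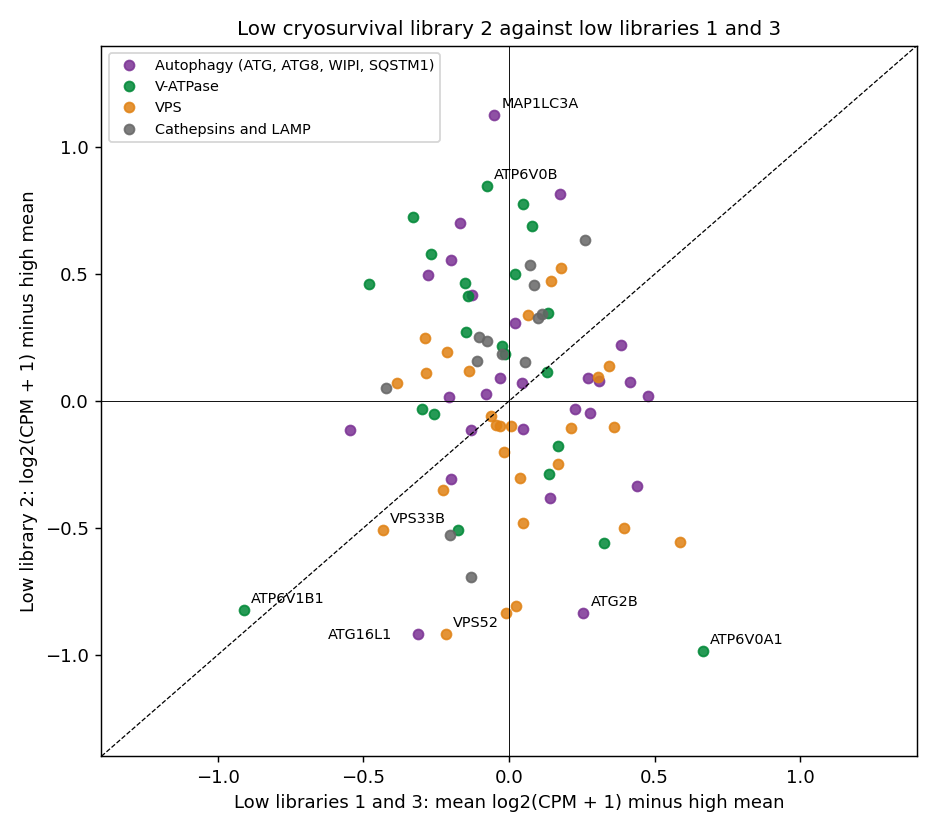
Each point is 1 of the 88 genes; the x axis is the mean of low libraries 1 and 3 and the y axis low library 2, both as log2(CPM + 1) minus the mean of the 3 high libraries, and the dashed line marks equal values. ATP6V1B1 and VPS33B lie near the line, whereas ATP6V0A1, ATG2B and MAP1LC3A lie far from it.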

How the data were processed

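RNA sequencing of 6 blastocyst libraries (RIN at least 7.7, per the labels) was analysed from the authors' deposited table of 9537 genes. Groups were taken from the labels. The submitters' processing notes name, without roles, DESeq 1.12.1, HTSeq 0.5.4p2, Bowtie2 2.1.0 with TopHat2 2.0.8, SAMtools 0.1.18 and also Cufflinks 2.1.1. Their genome build and filters were not stated there, and no coordinates are printed. The deposited expression values are CPM of a scaled library size: up to 1000 CPM, 100% of values are whole reads within 0.05 read, against 10% for random values. The lowest gene mean was 0.737 CPM. The deposited log2 fold changes and adjusted p-values are those of the authors. All 88 symbols matched RefSeq (ARS-UCD2.0). A further 18 protein-coding symbols there match the rule, VPS8 and VPS50 among them. They were absent under those names from the 9537 genes, so they were not analysed.

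Log2(CPM + 1) was fitted with limma 3.58.1 (R 4.3.3), low minus high, with Benjamini-Hochberg adjustment over all genes, at 0.05; the fit was tested on simulated data. Genes named by rule were any called by limma or in the deposited table, the 8 with the largest difference per direction among members with separate groups, the 2 highest in mean CPM of each role with 3 or more members, SQSTM1, both LAMP genes and the top 3 per direction of the companion genes, of which 1 is not reported here. Other members described singly, and the paralog pairs, were chosen after their values were seen. The members and lists were chosen with earlier results of these data known. Without transcript lengths, levels were not compared between genes. Alternatives were another pseudocount, a filter on low values, 2 other scalings, voom on recovered reads, a replicate block and leaving out each library. Counting methods do not state strand, so reads of overlapping genes may be mixed.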

Additional observations from a re-analysis of the deposited data

How the results depend on the processing

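Leaving out low cryosurvival library 2 changed the calls most. Leaving out 1 library at a time, limma called 0 to 1300 of all genes, 0 to 7 of the 88 members and 0 to 15 of the companion genes, each upper end being without that library and 0 in the other 5 cases. The members' median difference ran from -0.012 to 0.067, and separate members from 11 to 24 upward and 9 to 21 downward, with fewer libraries to overlap. Over all genes limma called 10 with a pseudocount of 0.5, 7 with genes of at least 5 CPM and 7 with median centring, none of them a member or a companion gene; the cause was not tested. TMM scaling and voom gave 0, and the fit with a replicate block called 0 genes; same-numbered libraries deviated with correlations of 0.1226, -0.2613 and -0.3121, so the numbers were not used to pair them. Median centring turned ATP6V0C to 0.0065, and leaving out 1 library turned the sign of 7 of 40 named genes, none called: GABARAPL2 ranged from -0.28 to 0.11, ATP6V0C from -0.15 to 0.074, ATP6V0A4 from -0.029 to 0.17, ATP6AP2 from -0.043 to 0.18, VPS25 from -0.29 to 0.0073, VPS28 from -0.21 to 0.030 and LAMP2 from -0.11 to 0.040. The other 33 kept their sign in each fit run. ATP6V1B1 ranged from -0.95 to -0.80. The planned edgeR and DESeq2 fits were not run. Depth limits MAP1LC3C, WIPI1, VPS37D, CTSS and ATP6AP1L, which rest on 63 reads or fewer per library. It also limits ATG4A, CTSK, ATG10 and ATP6V0A1, whose lowest libraries held 34, 55, 71 and 72 reads.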
